A study of Gallus gallus with 28 samples.

Results

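Out of the 11207 gene identifiers of the table, 100 were selected on their counts, as standing high in 2 libraries, t0 libraries 2 and 3 of chicks with heat conditioned parents. Library numbers are the replicate numbers of the sample titles, and t0 means unchallenged. The rule worked on log2(CPM + 1), where CPM is a gene's count per 1000000 counts of its library. It admitted genes with a mean of 20 to under 1000 CPM over 18 libraries, which left 4630. Of these it kept genes whose mean under heat was not below t0 in the non-conditioned lineage (1280), whose heat minus t0, averaged over both lineages, lay beyond 0.15 on either side (506), and whose LPS and t0 ranges overlapped (478). From the 478 eligible genes it took the 100 with the largest margin, meaning the lower value of the high pair minus the highest value of the other 16 libraries. Every one of the 18 libraries entered the rule, so that the levels below describe the set and are not tests of it.

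The samples were whole tissue lysates of the anterior preoptic hypothalamus of 10-day-old Cobb broilers, a meat strain of chicken. The chicks were offspring of birds incubated as embryos at 37.8 °C (non-conditioned lineage) or at 39.5 °C for 12 h per day from embryonic day 7 to 16 (conditioned lineage), a schedule that the labels give with the methylation samples. They were sampled at t0, after 6 h at 36 °C in place of 30 °C, or 6 h after lipopolysaccharide (LPS, a bacterial cell wall component) was injected into the third ventricle. Each of the 6 groups had 3 libraries, and the labels do not say whether a library came from 1 chick, so p-values measure the spread between these libraries. Neither a 6 h wait alone nor an injection alone had a group, so that these cannot be told apart from heat and LPS.

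The preoptic hypothalamus holds neurons that sense brain temperature and receive signals from the skin, and its output sets heat loss, heat production and fever. It borders the third ventricle and the optic chiasm, so that a dissected block can include ependyma, white matter and blood vessels beside neurons. The table gives Ensembl identifiers alone. None of them could be paired with a symbol (0 of 11207), since the reference table carried 0 Ensembl identifiers among its 25635 genes. The roles of the members are therefore not given, and neither the cell types of the tissue nor those behind the members could be checked by markers. In a tissue lysate a lower count from fewer cells of a type and from less RNA per cell cannot be told apart.

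Total counts ran from 828424 to 4589179 per library. The 2 libraries that chose the members were shallow, with 1168108 counts in library 2 and 828424, the lowest total of the 18, in library 3. The third t0 library of the conditioned lineage, library 1, held 1422688 counts, whereas those of the non-conditioned lineage held 3379626 to 4589179, so that depth and lineage went together at t0. No 2 of the 18 columns of counts were identical. Among the 4630 genes within the abundance bounds, 249 stood higher in both libraries than in all of the other 16, and 372 stood lower in both than in all of the other 16. This balance depended on the scaling, with 316 above and 364 below by TMM (trimmed mean of M values, edgeR's scaling) and 420 above and 289 below by the authors' factors. Genes thus set libraries 2 and 3 apart in both directions, and the members cover only a part of the upward side. The same counts were not made for other pairs of libraries, and the part of shallow depth in them was not tested.

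The name under which the set was chosen, genes high in both divergent libraries, held in full for 39 of the 100 members with CPM by column sums. In these 39 both libraries were above all of the other 16. In the remaining 61 at least 1 of the other 16 reached or passed the lower of the pair, with 1 such library in 26 members, 2 in 15 and 3 or more in 20, up to 9 libraries. Of the 249 genes above all other libraries, the 2 conditions on heat against t0 left out 210, of which 168 had a heat mean below t0 in the non-conditioned lineage and 42 an average heat difference within 0.15, while the overlap of the LPS and t0 ranges left out 0 more. The set is therefore called by its rule here. It also depended on the scaling, since the same rule on CPM from TMM library sizes took 38 of the 100 again. So did the fit to the name. Among the 100 genes that the rule took, 60 with TMM and 89 with the authors' factors had both libraries above all of the other 16. The margin fell from 0.56 for the first member to -0.35 for the last on the log2 scale, with a median of -0.06. At the boundary the members ranked 99 and 100 had margins of -0.35 and -0.35, and the genes ranked 101 and 102, just outside, had -0.36 and -0.36.

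**Figure D1:**
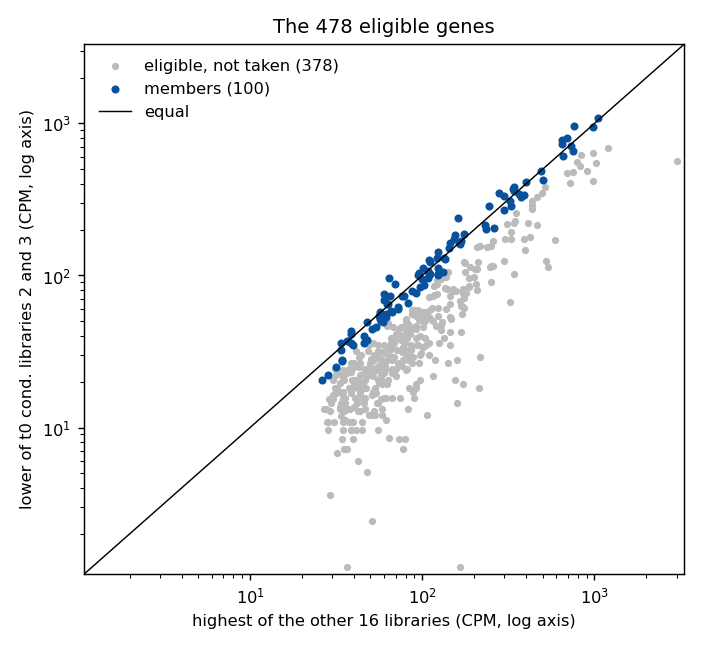
Each point is 1 of the 478 eligible genes, with the highest CPM among the other 16 libraries on the x axis and the lower CPM of t0 libraries 2 and 3 of the conditioned lineage on the y axis, both log axes. The 39 members above the line of equality exceed every other library in both, and the other 61 lie on or under it, next to the genes not taken.

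ENSGALG00000029872.1 had the largest margin. In the conditioned lineage at t0 it stood at 95.9 CPM in library 2 and 107 CPM in library 3, against 43.6 CPM in library 1. In the non-conditioned lineage at t0 the libraries stood at 27.2, 25.3 and 36.4 CPM. Library 1 of the conditioned lineage was thus nearer to the other lineage than to the libraries of its own group.

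Under heat ENSGALG00000029872.1 stood at 45.4, 49.2 and 56.1 CPM with non-conditioned parents and at 24.7, 27.2 and 23.2 CPM with conditioned ones, and these ranges did not overlap. Under LPS it stood at 41.8, 36.9 and 23.4 CPM with non-conditioned and 64.5, 43.7 and 20.2 CPM with conditioned parents, with overlapping ranges. The mean of the high pair was 2.76 times the mean of the other 16 libraries. Its counts in the pair were 112 and 89, and the exact 95% binomial (Clopper-Pearson) intervals were 78.9 to 115 CPM and 86.3 to 132 CPM. Both lay above the interval of 55.2 to 74.9 CPM for LPS library 1 of the conditioned lineage, the highest of the other 16. Such intervals cover counting error only, and the rule chose this member for that separation.

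ENSGALG00000038231.2 came second. At t0 in the conditioned lineage it stood at 113 CPM in library 1, 237 CPM in library 2 and 321 CPM in library 3, and in the non-conditioned lineage at 105, 137 and 138 CPM. Here library 1 of the conditioned lineage lay inside the range of the non-conditioned lineage. The heated libraries stood at 136, 161 and 144 CPM (non-conditioned) and 144, 83.1 and 124 CPM (conditioned). The LPS libraries stood at 90.1, 111 and 116 CPM (non-conditioned) and 147, 145 and 100.2 CPM (conditioned). Among the 16 libraries outside the pair the values thus ran from 83.1 to 161 CPM, and the mean of the pair was 2.24 times their mean.

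The 2 most abundant members showed smaller departures. ENSGALG00000043002.1 stood at 1131 CPM in t0 library 2, 1089 CPM in t0 library 3 and 1044 CPM in t0 library 1 of the conditioned lineage. In the non-conditioned lineage at t0 it stood at 708, 767 and 892 CPM, so that all 3 conditioned libraries were above all 3 others. It ran from 726 to 933 CPM over the 6 heated libraries and from 652 to 878 CPM over the 6 LPS libraries. The interval of library 3, 1019 to 1162 CPM, overlapped that of library 1, 991 to 1098 CPM.

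ENSGALG00000042309.1 had 2 of the other 16 libraries above the lower of the pair. It stood at 947 CPM in t0 library 2, 1083 CPM in t0 library 3 and 985 CPM in t0 library 1 of the conditioned lineage, against 737, 738 and 894 CPM in the non-conditioned lineage at t0. Its values ran from 695 to 955 CPM under heat, with the highest, in library 3 of the non-conditioned lineage, above t0 library 2. Under LPS they ran from 676 to 801 CPM. As in ENSGALG00000043002.1, the 3 conditioned libraries at t0 were all above the 3 non-conditioned ones.

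**Figure D2:**
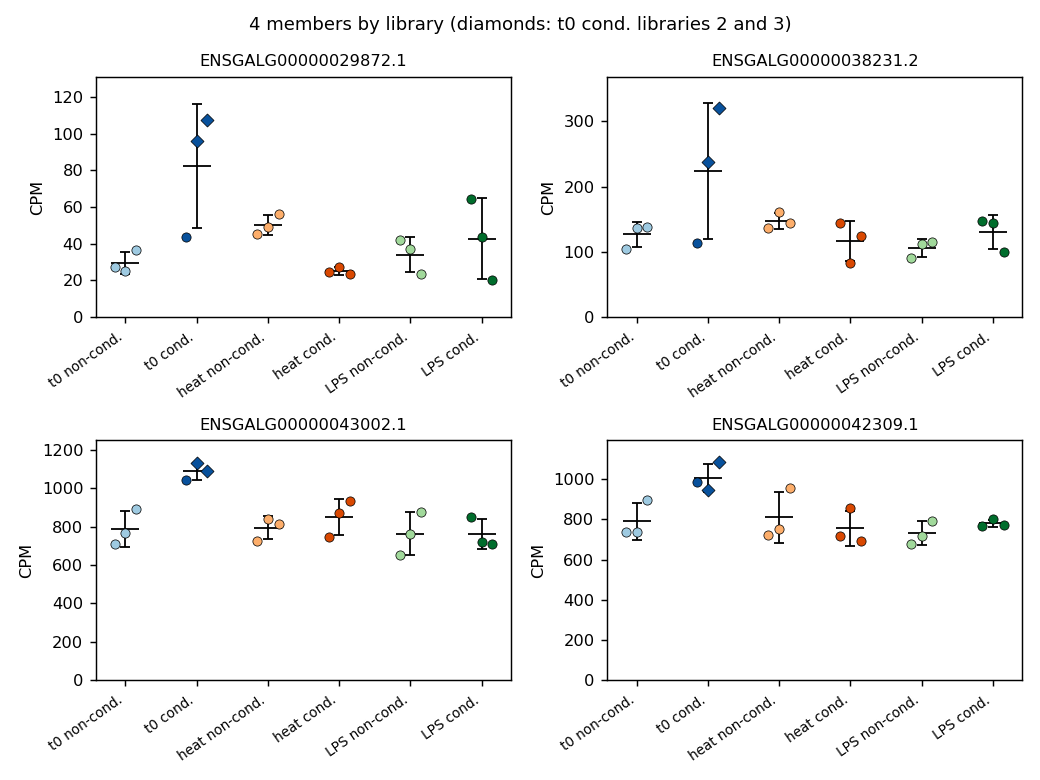
CPM of 4 members (y axes, from 0) in the 6 groups, with 1 point per library, diamonds for t0 libraries 2 and 3 of the conditioned lineage, and bars for the mean and SD of 3 libraries. In the upper row t0 library 1 of the conditioned lineage (43.6 and 113 CPM) lies far under the diamonds, and in the lower row (1044 and 985 CPM) it lies beside them.

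Over the whole set, the mean of the high pair was 1.05 to 2.76 times the mean of the other 16 libraries, with a median of 1.47, and 40 members passed 1.5-fold. On the log2 scale the median difference was 0.55 for the members and -0.06 for the 4630 genes within the abundance bounds. These differences were fixed by the choice of members. Library 3 was the higher of the pair in 64 members and library 2 in 36, with a median of 0.11 for library 3 minus library 2 and quartiles of -0.05 and 0.32. Among the 4630 genes library 3 was the higher in 42.7%. The order inside the pair was no condition of the rule, and each side of it is 1 library. Relative to the other 16, eligible genes not taken had medians of -0.28 in library 2 and -0.46 in library 3. How far the choice of members bears on the order was not tested.

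Counting error bore on most of the margins. The members had 24 to 1321 counts in library 2 (median 123) and 19 to 902 in library 3 (median 90.5). In 6 of the 39 members above all other libraries, the exact 95% intervals of both libraries lay above the interval of the next highest library. In the other 33 at least 1 of the 2 intervals overlapped it. The rule ranked the members on this same separation, so these counts are a description and no test. The intervals treat counts as independent draws. Whether amplification copies were removed is not stated, so that the intervals may be too narrow. The members were somewhat more abundant than their pool, with a median of 81.0 CPM (quartiles 42.4 and 183) against 65.1 CPM for the 4630 genes.

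The members took 2.01% of all counts in t0 library 2 and 2.12% in t0 library 3 of the conditioned lineage. Next came heated library 3 of the non-conditioned lineage at 1.74%, t0 library 1 of the conditioned lineage at 1.68% and LPS library 2 of the conditioned lineage at 1.62%. The other 13 libraries lay between 1.25% and 1.49%. As group means the shares were 1.94% ± 0.23 at t0 in the conditioned lineage and 1.38% ± 0.09 at t0 in the non-conditioned lineage (SD, n = 3 each). Under heat they were 1.39% ± 0.05 (conditioned) and 1.49% ± 0.21 (non-conditioned), and under LPS 1.45% ± 0.15 and 1.35% ± 0.10.

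Outside the pair, 3 libraries thus ran high as well. Relative to the mean of the other 16, the median member stood at 0.31 in heated library 3 of the non-conditioned lineage, 0.22 in LPS library 2 of the conditioned lineage and 0.17 in t0 library 1 of the conditioned lineage, against 0.51 and 0.59 in the pair. The medians of the 4630 genes in the same 3 libraries were -0.03, -0.05 and -0.01. In 96 of 100 members heated library 3 was above the mean of the 16, in 77 LPS library 2 was, and in 70 t0 library 1 was. These 3 libraries supplied the highest of the other 16 values in 72 members (31, 23 and 18), compared with 22.7% of the 4630 genes. Heated library 3 exceeded both other libraries of its own group in 77 members, against 39.5% of the 4630 genes, and LPS library 2 did so in 65, against 31.7%. The rule names none of these 3 libraries. Its conditions on heat against t0 favour high values in the groups that hold heated library 3 and t0 library 1, so that these counts are a description.

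The 5 libraries with the highest shares were all in the lower part of the depth range, at 828424 to 1461890 counts. Libraries as shallow with lower shares were heated library 1 of the non-conditioned lineage (1145375 counts, 1.35%) and heated library 2 of the conditioned lineage (1214734 counts, 1.43%). The part of depth in the members' pattern was not tested.

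**Figure D3:**
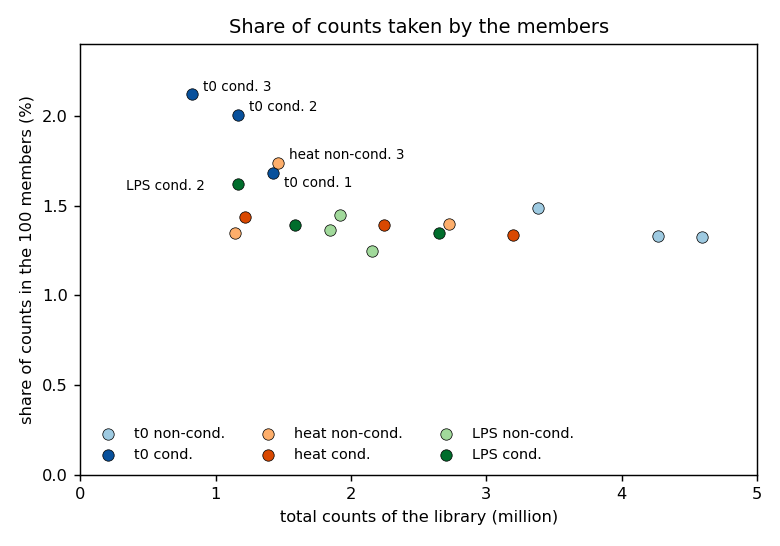
Share of each library's counts that fell on the 100 members (y axis, %, from 0) against the library's total counts (x axis, in units of 1000000), with 1 point per library coloured by group. The 5 labelled libraries lie at 1.62% or more and at 1461890 counts or fewer, and the other 13, shallow and deep, lie at 1.49% or less.

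**Figure D4:**
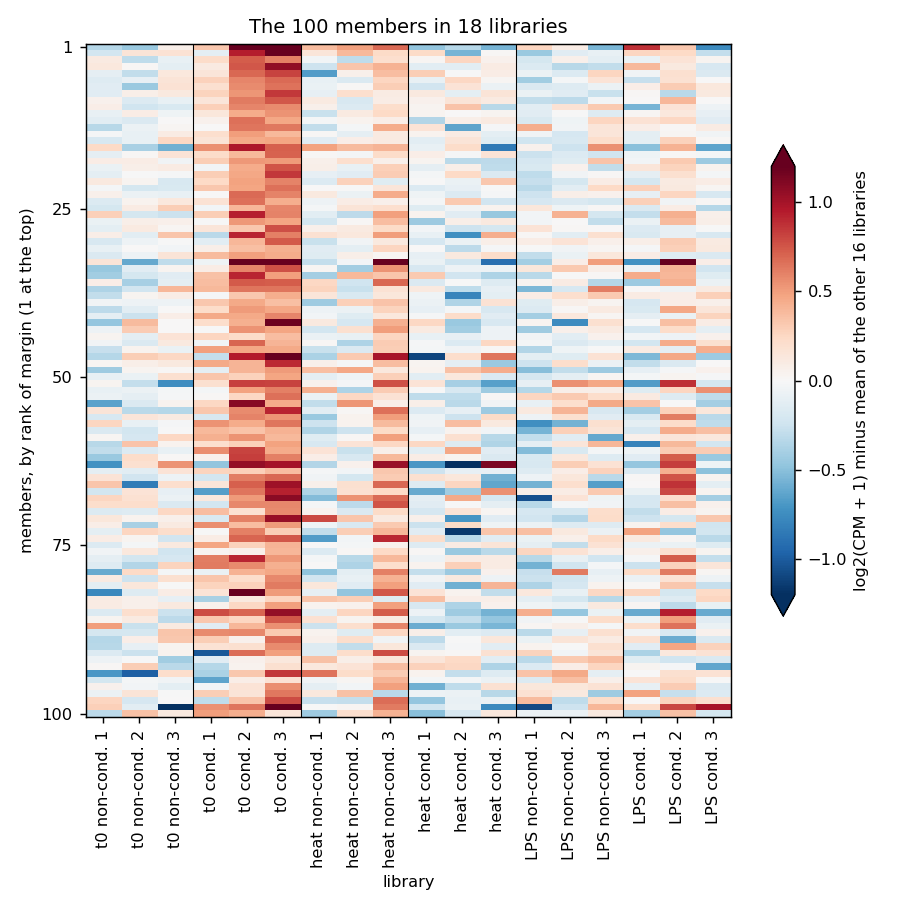
The 100 members in rows, ordered by margin, and the 18 libraries in columns, with colour for log2(CPM + 1) minus the member's mean over the other 16 libraries, clipped at 1.2. T0 libraries 2 and 3 of the conditioned lineage are raised in every row, and heated library 3 of the non-conditioned lineage and LPS library 2 of the conditioned lineage are above that mean in 96 and 77 rows.

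Library 1 of the conditioned lineage at t0 took a middle place. It was above all 3 non-conditioned t0 libraries in 57 members, against 19.1% of the 4630 genes, and below all 3 in 10, against 40.04%. The median member was 0.23 higher in it than the mean of the non-conditioned t0 libraries on the log2(CPM + 1) scale, and the median of the 4630 genes was -0.09. In an edgeR fit with TMM scaling and without libraries 2 and 3, this 1 library against the 3 gave a median difference of 0.31, positive in 83 of 100 members. A group of 1 library has no spread of its own. The rule also kept genes whose t0 mean in the non-conditioned lineage was not above heat. Its average of heat minus t0 took in library 1, while the 4630 genes met neither condition as a set. The counts and differences of this library are therefore a description.

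The difference between the lineages was largest at t0, where the rule had placed it. All 100 members passed the filter on low counts, which kept 7921 genes. In the edgeR fit of all 18 libraries the median member was 0.58 higher in the conditioned lineage at t0 (quartiles 0.46 and 0.72), and the median of all genes tested was -0.02. The estimates ran from 0.05 to 1.57, with standard errors of 0.12 to 0.52. For ENSGALG00000029872.1 it was 1.57 ± 0.33 (SE), with means of 82.3 ± 34.03 and 29.6 ± 5.95 CPM (SD, n = 3), and for ENSGALG00000038231.2 it was 0.93 ± 0.26, with means of 224 ± 105 and 127 ± 18.9 CPM. ENSGALG00000043002.1 differed by 0.58 ± 0.13 and ENSGALG00000042309.1 by 0.46 ± 0.14.

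None of the 100 members passed the edgeR threshold at t0 (adjusted p under 0.05, a rule that called 0% of the 7921 genes), and 75 were at an unadjusted p under 0.05, which 15.7% of genes reached. DESeq2 called 44 members, all higher in the conditioned lineage, where it called 2.26% of genes in that direction and 0.833% in the other. When t0 library 1 of the conditioned lineage was left out, edgeR called 39 members higher, with 2.31% of genes called in that direction and 3.22% in the other. By column sums, the 3 conditioned libraries were all above the 3 non-conditioned ones at t0 in 54 members, against 6.21% of genes. They were all below in 0, against 15.1%. TMM was not applied to these counts, and in the edgeR fit 48.1% of all genes were positive. The choice of members used this contrast, and nothing is read from these counts.

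The difference between the lineages under LPS was no condition of the rule, but the 6 LPS libraries entered it, through the highest of the other 16 values and the overlap with t0, in the same way for both lineages. The members share these 6 libraries and were chosen for a like profile, so their signs are not independent of each other. The values are given with these limits. The median member was 0.12 higher in the conditioned lineage (quartiles -0.02 and 0.27), with 72 positive and 28 negative estimates, where 50.2% of the 7921 genes were positive and their median was 0.00. EdgeR called 0 members, as it called 0% of all genes, and the smallest adjusted p among the members was 0.999. DESeq2 also called 0 members and 0% of all genes. At an unadjusted p under 0.05 there were 4 members, all higher in the conditioned lineage, while 3.8% of all genes reached that level in either direction. By column sums, the 3 libraries of the conditioned lineage were all above the 3 others in 6 members, against 3.41% of genes. They were all below in 2, against 5.85%. With a median standard error of 0.22 per gene, tests of single genes could not decide whether a difference of 0.12 was present.

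Fewer estimates under LPS were positive without library 2 of the conditioned lineage. There 55 of 100 members were positive and the median was 0.04. Without library 1 of that lineage the median was 0.20 and 83 were positive, and without LPS library 1 of the non-conditioned lineage it was 0.08 with 62 positive.

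The 4 members at an unadjusted p under 0.05, a share near the 3.8% of all genes, were named after their values were seen. ENSGALG00000029330.1 stood at 382, 423 and 304 CPM with non-conditioned and at 485, 514 and 507 CPM with conditioned parents under LPS, a log2 difference of 0.49 ± 0.18 (SE). ENSGALG00000001572.5 stood at 150.4, 149 and 181 CPM against 185, 244 and 186 CPM (0.40 ± 0.17). In both, all 3 conditioned libraries were above all 3 others. ENSGALG00000035817.1 (0.47 ± 0.21) and ENSGALG00000038876.1 (0.96 ± 0.43) had overlapping ranges, the latter at 10.2 to 30.2 CPM against 26.4 to 46.0 CPM. For each of the 4 the edgeR adjusted p was 0.999. Of the members given above, ENSGALG00000029872.1 differed by 0.39 ± 0.34, ENSGALG00000038231.2 by 0.35 ± 0.26, ENSGALG00000043002.1 by 0.04 ± 0.13 and ENSGALG00000042309.1 by 0.14 ± 0.14 (edgeR adjusted p = 0.999 for each).

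Under heat the estimates had the other sign. The median member was lower with conditioned than with non-conditioned parents (a log2 difference of -0.24, quartiles -0.37 and -0.10), with 92 negative and 8 positive estimates, where 49.4% of all genes were positive. EdgeR called 0 members and 0.0252% of all genes, and DESeq2 called 0 members and 0.126% of all genes. At an unadjusted p under 0.05 there were 8 members, all lower, against 5.88% of genes in either direction. By column sums, the 3 conditioned libraries lay below the 3 others in 11 members, against 2.78% of genes, and above in 0, against 8.85%. The rule used the heated libraries of both lineages, with the heat mean of the non-conditioned lineage kept from falling under its t0 mean, so these values are a description. In the 93 members whose average of heat minus t0 was below -0.15, the median log2 deviation from the mean of the other 16 libraries was -0.08 under heat and 0.44 at t0 in the conditioned lineage. When heated library 3 of the non-conditioned lineage was left out, the median was -0.10, with 71 negative. ENSGALG00000029872.1 had the lowest estimate of the members, -1.09 ± 0.35 (edgeR adjusted p = 0.741), from means of 25.0 ± 2.00 and 50.2 ± 5.42 CPM (SD, n = 3).

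**Figure D5:**
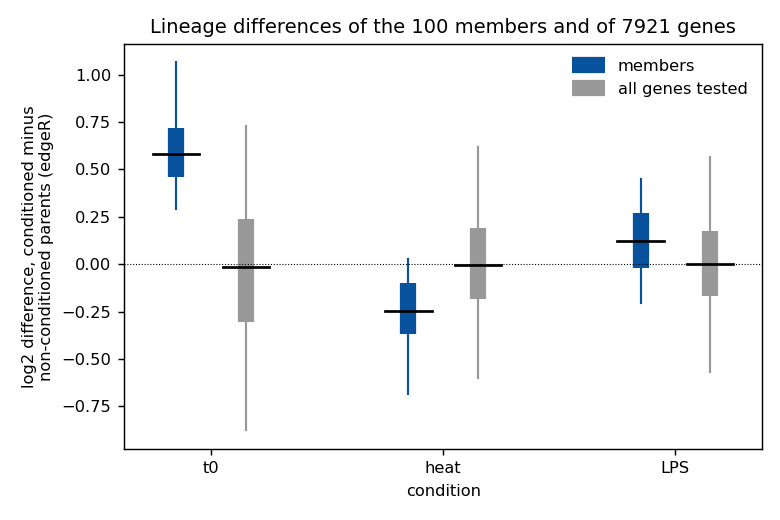
Log2 difference between the lineages in edgeR (y axis, conditioned minus non-conditioned parents) at t0, under heat and under LPS (x axis), for the 100 members and for the 7921 genes tested, with a black line at the median, a box over the quartiles and a line from the 5th to the 95th percentile. The members' medians are 0.58, -0.24 and 0.12, and those of all genes lie at 0 within 0.02.

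Heat against t0 entered the rule in both lineages. The median member changed by 0.10 in the non-conditioned lineage, where the lowest value the rule allowed was 0 and the highest member reached 0.88, and by -0.49 in the conditioned lineage, where 94 of 100 were negative, from -1.58 to 0.17. These means hold t0 libraries 2 and 3. The median of the 4630 genes for heat minus t0 in the non-conditioned lineage was -0.13 by column sums and -0.01 with TMM scaling. No such value is given for the conditioned lineage, so its 94 negative members have no share of all genes beside them. In 93 members the average of both lineages was below -0.15 and in 7 it was above 0.15. None of the 7 had both libraries of the pair above all others, and 6 of them ranked 83 or lower by margin. Their medians of heat minus t0 were 0.35 with non-conditioned and 0.07 with conditioned parents, against 0.08 and -0.50 in the 93.

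LPS was also set against heat within each lineage, comparisons that share the heated and LPS libraries of those above. In the non-conditioned lineage the median member was lower under LPS than under heat, by a log2 difference of -0.18, with 89 negative estimates. In the conditioned lineage it was higher, by 0.17, with 78 positive. Of all genes, 49.1% were positive in each of these comparisons. EdgeR called 0 members in each, where it called 1.75% and 1.55% of all genes, with 6 members (9.34% of genes) and 9 members (8.42% of genes) at an unadjusted p under 0.05. By column sums, the 3 LPS libraries were all below the 3 heated ones in 5 members of the non-conditioned lineage, against 4.57% of genes. They were all above in 0, against 11.1%. In the conditioned lineage they were all above in 10, against 5.39%, and all below in 1, against 7.93%. With the replicate number as a block edgeR called 1 member and 1.83% of all genes in the non-conditioned lineage, and DESeq2 called 1 member and 2.01% of all genes in the conditioned lineage. The medians became -0.07 once heated library 3 of the non-conditioned lineage was left out and 0.08 without LPS library 2 of the conditioned lineage. Since the rule bounds the heated libraries, these are descriptions.

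Over the 16 libraries outside the pair, the median Pearson r between 2 members was 0.23, against 0.10 between eligible genes that were not taken and 0.07 between any 2 of the 4630 genes. The rule used these libraries too, they include the 3 that ran high, the genes share libraries and depth, and the correlations are weak. The gene whose profile over all 18 libraries was most like that of ENSGALG00000029872.1 had an r of 0.81 and was not a member. It had a mean of 6358 CPM, above the upper bound of the rule. The next 2 had an r of 0.81 and 0.80, and the latter was a member.

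Ensembl adds a version number to each identifier and raises it when the gene model is revised. Among the members 37 carried version 1, against 15.1% of the eligible genes not taken, 17.7% of the 4630 genes and 21.9% of the whole table. The members of version 1 all had identifiers late in the numbering, so that version and number were not separated among them. The 37 had a median of 0.63 for the pair minus the other 16 libraries, and the later versions 0.52. All 4 members described first have identifiers of version 1 or 2, 3 of them version 1. Within the abundance bounds, 27.3% of the 249 genes above all other libraries in both had version 1, as did 10.2% of the 372 genes below all others. The reads of 3′ libraries fall near the 3′ end of a transcript, and how far the gene models bear on these counts was not tested.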

How the data were processed

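RNA libraries of 18 samples were analysed, 3 in each of 6 groups, and the 10 methylation samples were not analysed here. Per the labels' protocols libraries were made by bulk MARS-seq, a 3′ end method. The submitters' processing notes list cutadapt, STAR, HTSeq and DESeq2 with build galGal5. For versions, settings, strand and molecular identifiers the sources used here state nothing. Per the file headers the deposited table holds raw counts per gene and the authors' normalized signal. The latter was the raw column divided by 1 constant per library (every gene with at least 100 counts within 1%), and served only for 1 alternative scaling.

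The members and lists were chosen with earlier results of these data known. The rule was applied to CPM by column sums. Groups were compared with edgeR 4.0.16 (R 4.3.3, TMM, filterByExpr by group, quasi-likelihood test, Benjamini-Hochberg over 7921 genes, threshold 0.05), in 1 group-means model of all 18 libraries. Standard errors are the log2 difference over the square root of F. The fit was tested on simulated data without divergent libraries and with larger changes than most members showed. That test therefore does not bear on the differences given here. Alternatives were DESeq2 1.42.0, RLE factors, no low-count filter, the compared groups alone, a replicate block and leaving out each library, with the filter kept. The naming rule without symbols gave the 2 members of largest margin and the 2 of highest mean CPM. The 4 members at an unadjusted p under 0.05 under LPS were named outside that rule. The marker and gene lists could not be applied without symbols.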

Additional observations from a re-analysis of the deposited data

How the results depend on the processing

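Membership depended on the scaling. Of the 100 members 38 were taken again with CPM from TMM effective library sizes, 37 with the authors' factors (an alternative chosen after seeing the data) and 24 by the margin alone within the abundance bounds, against 92 with log2(CPM + 5), 69 with a mean of at least 5 CPM and no upper bound, and 100 when t0 library 1 of the conditioned lineage was left out of the margin. Column sums put the median of heat minus t0 in the non-conditioned lineage at -0.13 over the 4630 genes and TMM at -0.01, so that 1280 and 2245 genes had a value of 0 or more and 478 and 748 were eligible. Of the 100 members 40 were above all other libraries in both of the pair with TMM and 46 with the authors' factors, and their median difference from the other 16 was 0.60 and 0.65. With TMM 40 members were no longer eligible, and with the authors' factors 22. The sets of 100 that the rule took under these scalings held 60 and 89 genes above all other libraries in both of the pair.

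For the lineage difference under LPS, genes and members called were 0 under every alternative run, and without single libraries the members' median ran from 0.04 to 0.20. Under heat the genes called were 2, 10 with DESeq2 and 0 with the compared groups alone, and from 0 to 3 without single libraries, while members called stayed at 0 and their median ran from -0.30 to -0.10. At t0 the genes called were 0, 245 with DESeq2 (44 members) and 3 with the compared groups alone, and from 0 to 438 without single libraries (0 to 39 members). The members' median there ran from 0.47 to 0.71 without single libraries and was 0.31 without libraries 2 and 3 together, which leaves 1 library assumed to vary like the others. For LPS against heat in the non-conditioned lineage the genes called were 139 and ran from 80 to 108 without single libraries, and the members' median from -0.26 to -0.07. In the conditioned lineage they were 123 and ran from 91 to 123, with medians from 0.08 to 0.23, and DESeq2 called 159 genes (2.01%), 1 of them a member.

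By the replicate numbers of the titles, the deviations of same-numbered libraries had correlations between -0.23 and 0.24 over the comparisons. Of 6 best matches, 4 had the same number for the lineage difference at t0, 4 under LPS and 2 under heat. For LPS against heat these were 3 of 6 in the non-conditioned and 0 of 6 in the conditioned lineage. These matches are few and were not tested against random numbering, so no pairing is read from them. The column headers number some libraries otherwise than the titles, and a pairing by header number was not tested. With the replicate block edgeR called 4 genes for the lineage difference under heat and 1 member (of 145 genes, 1.83%) for LPS against heat in the non-conditioned lineage, and no other count of calls moved by over 1.5 times. Between 19 and 1321 counts per member in t0 libraries 2 and 3 limit how finely the margin can be ranked.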

Other observations

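The version number of the identifiers also sorted the libraries among genes outside the set. Within the abundance bounds 782 genes that were not members carried version 1 and 3748 a later version. Relative to the mean of the other 16 libraries, the median of the version 1 genes exceeded that of the later versions by 0.22 in t0 library 3 and 0.09 in t0 library 2 of the conditioned lineage. It did so by 0.08 in heated library 3 of the non-conditioned lineage and by 0.05 in LPS library 2 of the conditioned lineage. In the remaining 14 libraries the difference lay between -0.03 and 0.02. These 4 libraries are among the 5 in which the members took the largest share of counts, and the fifth, t0 library 1 of the conditioned lineage, had a difference of 0.02. This comparison was made after the pattern among the members was seen.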
